A study of Mus musculus with 13 samples.

Results

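The 10 genes described here belong to the unfolded protein response and the integrated stress response: Hspa5, Sdf2l1, Creld2, Dnajb9, Herpud1, Xbp1, Atf4, Ddit3, Trib3 and Asns. They were taken by symbol from a count table of 22048 mouse genes, and all 10 passed the filter on low counts that left 13831 genes to test. The table holds RNA-seq of whole livers from 13 mice in 3 groups. The 6 control livers kept their hepatic stellate cells, and the labels name no operation on them (replicates 1, 2 and 6 from males, replicates 3, 4 and 5 from females). In 4 livers the stellate cells had been depleted (replicate 3 from a male, replicates 1, 2 and 4 from females). The remaining 3 livers were not depleted and were taken 72 h after partial hepatectomy, an operation that removes liver lobes and starts regrowth (replicates 1 and 2 from males, replicate 3 from a female). The labels give neither strain, age, genotype, means of depletion nor sequencing batch, so a batch that followed the groups cannot be told apart from them.

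When proteins fail to fold in the endoplasmic reticulum (ER), 3 sensors in its membrane act. IRE1 (gene Ern1) splices the mRNA of Xbp1 into a form that encodes an active transcription factor, ATF6 is cut to release another, and PERK (Eif2ak3) phosphorylates the initiation factor eIF2α. Phosphorylated eIF2α lowers translation at large and raises that of the Atf4 mRNA, and kinases that sense amino acid shortage, haem shortage or viral RNA reach the same step, which is why this arm is called the integrated stress response. Hepatocytes secrete most plasma proteins and have abundant ER, and the pathway is active in healthy liver after feeding as well as in liver disease.

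Several of these genes carry ER stress elements in their promoters, sequences that bind ATF6 together with the CCAAT-binding factor NF-Y. The 250 bases before the RefSeq start of each of the 10 genes were searched on both strands. The ER stress element, CCAAT and CCACG with 9 bases of any kind between them, was found in Hspa5 and Creld2, and in 0.113% of 32851 RefSeq promoter windows of the same length. The related element ERSE-II, ATTGG and CCACG with 1 base between them, was found in Herpud1 alone among the 10, and in 0.0304% of all windows. The promoters of these 3 genes are printed with that of Trib3, the gene that differed between depleted and control livers, each from 5′ to 3′ on the strand of its gene, with matches to these elements in capitals (for Creld2 the match reads on the opposite strand) and, in Herpud1, also a match to the ATF4-type core TTGCATCA.
Hspa5 (GRCm38 chr2:34771840-34772089, plus strand): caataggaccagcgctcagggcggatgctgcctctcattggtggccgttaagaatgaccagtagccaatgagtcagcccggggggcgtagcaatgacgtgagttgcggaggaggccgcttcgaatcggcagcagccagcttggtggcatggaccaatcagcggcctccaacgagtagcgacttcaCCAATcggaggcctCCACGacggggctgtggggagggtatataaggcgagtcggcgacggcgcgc
Creld2 (GRCm38 chr15:88819396-88819645, plus strand): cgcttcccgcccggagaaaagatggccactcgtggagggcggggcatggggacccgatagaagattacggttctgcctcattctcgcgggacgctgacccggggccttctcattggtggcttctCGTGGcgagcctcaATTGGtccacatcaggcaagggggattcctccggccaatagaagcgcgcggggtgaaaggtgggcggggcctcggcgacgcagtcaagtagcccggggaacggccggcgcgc
Herpud1 (GRCm38 chr8:94386179-94386428, plus strand): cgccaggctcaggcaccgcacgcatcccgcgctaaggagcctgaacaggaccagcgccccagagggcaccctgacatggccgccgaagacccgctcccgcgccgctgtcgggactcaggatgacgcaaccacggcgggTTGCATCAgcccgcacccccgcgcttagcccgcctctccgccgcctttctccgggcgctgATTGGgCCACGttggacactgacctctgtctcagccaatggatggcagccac
Trib3 (GRCm38 chr2:152344061-152344310, minus strand): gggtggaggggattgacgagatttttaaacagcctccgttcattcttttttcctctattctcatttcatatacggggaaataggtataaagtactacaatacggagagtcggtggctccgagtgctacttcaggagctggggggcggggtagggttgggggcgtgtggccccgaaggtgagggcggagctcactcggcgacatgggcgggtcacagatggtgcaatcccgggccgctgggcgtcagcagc
The core TTGCATCA occurred in Herpud1 alone among the 10 and in 0.791% of all windows, and the XBP1-type core TGACGTGG occurred in none of the 10 and in 0.563% of all windows. The shorter CCAAT box, which is part of both ER stress elements on one or the other strand, occurred in 7 of the 10 and in 33.8% of all windows. A match is a description of these letters only, and the absence of one in a window of this length says nothing of the factor. RefSeq starts differ from the GENCODE gene ends given further on for several of the genes.

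Levels are given as CPM, read counts relative to a library total that was adjusted by the TMM factor of edgeR. Differences are log2 fold changes from edgeR's quasi-likelihood test with sex as a covariate, with standard errors (SE) and p-values adjusted over all 13831 genes by the Benjamini-Hochberg method. A gene is called changed where the adjusted p is under 0.05. Library totals ran from 35360991 to 51008737 counts, at which 3 counts correspond to between 0.0524 and 0.0900 CPM on this scale, a limit that covers counting error only. The stellate cell markers fell in the depleted livers, 8 of 8 called, from summed levels of 198 to 555 CPM in controls to 9.66, 8.11, 6.27 and 53.0 CPM in depleted replicates 1 to 4, with Des and Colec11 at 0 counts in at least 1 depleted liver. Depleted replicate 4 thus stood apart from the other 3 in stellate signal, and its sinusoidal endothelial markers summed to 271 CPM against 489 to 512 CPM in them. Hepatocyte markers summed to between 68126 and 175999 CPM in all 13 livers, and 0 of 8 were called in either comparison with control by edgeR.

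Per length, the controls expressed Herpud1 and Hspa5 most and Asns least. In RPKM, that is CPM per kilobase of exon, mean control levels were 155 for Herpud1, 133 for Hspa5, 71.6 for Xbp1, 53.8 for Atf4, 32.5 for Dnajb9, 19.9 for Sdf2l1, 16.3 for Creld2, 10.6 for Trib3, 2.89 for Ddit3 and 1.10 for Asns. The ranges of all neighbours in this order overlapped over the 6 controls, although Hspa5 exceeded Xbp1, Dnajb9 exceeded Sdf2l1, Trib3 exceeded Ddit3 and Ddit3 exceeded Asns within 6 of 6 libraries. In depleted livers Trib3 (2.92 RPKM) stood below Ddit3 (3.24 RPKM), with 2 of 4 libraries in that order and overlapping ranges. After hepatectomy Asns (5.38 RPKM) stood above Trib3 (3.28 RPKM) in 2 of 3 libraries, again with overlapping ranges.

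**Figure D1:**
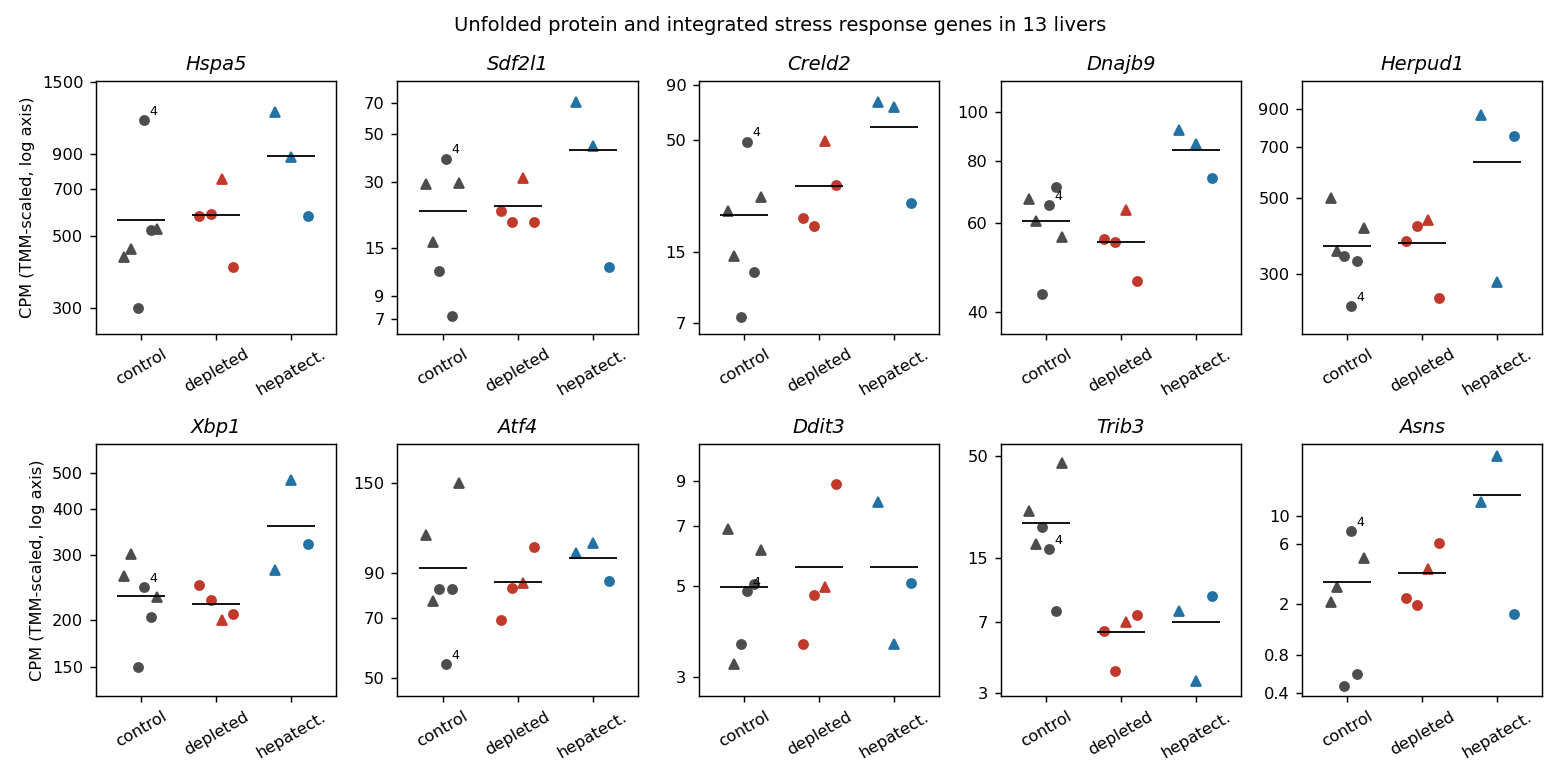
Level of each gene in every liver, in TMM-scaled CPM on log axes that differ between panels; triangles are males, circles females, horizontal lines group means, and the number 4 marks control replicate 4. Trib3 lies lower in all 4 depleted livers than in any control, and Hspa5 of control replicate 4 (1143 CPM) stands above the other 5 controls.

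Hspa5 encodes BiP, the main HSP70 chaperone of the ER lumen, which also holds the 3 sensors inactive (ENSMUSG00000026864, GRCm38 chr2:34771970-34777547, plus strand). Controls ranged from 299 through a median of 488 to 1143 CPM. The depleted livers read 578, 587, 751 and 400.2 CPM in replicates 1 to 4, and the hepatectomised livers read 1209, 876 and 577 CPM in replicates 1 to 3. The highest control was replicate 4, a female, and the next control reached 525 CPM. The ranges of all 3 groups overlapped, and no comparison was called: the log2 fold change was 0.05 ± 0.34 (SE, adjusted p = 0.927) for depleted against control livers and 0.63 ± 0.39 (SE, adjusted p = 0.342) for hepatectomised against control livers.

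Sdf2l1 and Creld2 encode ER proteins that are induced with BiP. SDF2L1 works in complexes with BiP and its J-domain partners, and CRELD2 is an ER-resident and partly secreted protein with disulfide isomerase activity (Sdf2l1: ENSMUSG00000022769, chr16:17130138-17132383, minus strand; Creld2: ENSMUSG00000023272, chr15:88819646-88826683, plus strand). Sdf2l1 ranged from 7.21 through 22.7 to 38.6 CPM in controls, and read 22.2, 19.7, 31.3 and 19.6 CPM in the depleted and 70.5, 44.3 and 12.2 CPM in the hepatectomised livers. Both males after hepatectomy lay above every control, and the female lay within the controls' range. Creld2 showed the same order of libraries after hepatectomy, with 74.9, 71.2 and 25.3 CPM against 7.51 to 48.8 CPM (median 18.8) in controls. Depleted livers read 21.5, 19.9, 49.1 and 30.6 CPM for Creld2. Against control, the log2 fold changes of Sdf2l1 were 0.25 ± 0.45 (SE) in depleted and 0.63 ± 0.50 (SE) in hepatectomised livers, and those of Creld2 were 0.49 ± 0.46 and 1.147 ± 0.53 (SE). None of these 4 was called, with adjusted p of 0.711, 0.477, 0.449 and 0.204 in that order.

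Dnajb9 encodes ERdj4, a J-domain cochaperone that directs BiP to IRE1 and to misfolded proteins (ENSMUSG00000014905, chr12:44205559-44210326, minus strand). It varied least among the 10 genes in controls, from 43.4 through 63.0 to 70.7 CPM. The depleted livers read 55.9, 55.0, 63.8 and 46.1 CPM, and the hepatectomised livers read 92.2, 86.2 and 73.8 CPM. All 3 hepatectomised livers lay above all 6 controls and all 4 depleted livers. Dnajb9 was called lower in depleted than in hepatectomised livers (log2 fold change -0.54 ± 0.17, SE; adjusted p = 0.0338), and was not called against control (0.44 ± 0.15, adjusted p = 0.0885, after hepatectomy; -0.10 ± 0.14, adjusted p = 0.617, after depletion). The call between depleted and hepatectomised livers was lost when any 1 of those 7 libraries was left out (adjusted p from 0.0523 without depleted replicate 4 to 0.0768 without hepatectomised replicate 1). It was also lost with scaling to library size alone (-0.22, adjusted p = 0.412), with the replicate number as a block (-0.52, 0.0636) and in a fit of those groups alone (-0.51, 0.0748).

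Herpud1 encodes an ER membrane protein that assembles the ubiquitin ligase of ER-associated degradation, the route by which misfolded ER proteins reach the proteasome (ENSMUSG00000031770, chr8:94386438-94395377, plus strand). Controls ranged from 242 through 345 to 497 CPM, and the depleted livers read 376, 415, 432 and 256 CPM. The hepatectomised livers were split, with 870.0 and 754 CPM in replicates 1 and 3 and 285 CPM in replicate 2. The log2 fold change against control was 0.81 ± 0.30 (SE, adjusted p = 0.115) after hepatectomy and 0.10 ± 0.29 (SE, adjusted p = 0.827) after depletion. Without hepatectomised replicate 2 the gene was called higher after hepatectomy (1.18, adjusted p = 0.0108) and lower in depleted than in hepatectomised livers (-1.05, adjusted p = 0.00855). An antisense gene, Gm15890, overlaps Herpud1, and how strand entered the authors' counting is not given in the sources used here.

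Xbp1 encodes the transcription factor that IRE1 activates by splicing, and gene counts do not separate spliced from unspliced mRNA (ENSMUSG00000020484, chr11:5520659-5525893, plus strand). Controls ranged from 149.6 through 238 to 302 CPM. Depleted livers read 249, 227, 201 and 208 CPM and hepatectomised livers 274, 479 and 321 CPM, so that the ranges of these last groups did not overlap. The log2 fold change was 0.59 ± 0.20 (SE, adjusted p = 0.0946) after hepatectomy against control, 0.00 ± 0.20 (SE, adjusted p = 0.996) after depletion against control, and -0.59 ± 0.24 (SE, adjusted p = 0.0897) for depleted against hepatectomised livers. Without hepatectomised replicate 1, Xbp1 was called in both comparisons with hepatectomised livers (0.77, adjusted p = 0.0446, and -0.75, adjusted p = 0.0372).

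Atf4 encodes the transcription factor at the centre of the integrated stress response, which is governed largely at translation, a step that mRNA counts do not read (ENSMUSG00000042406, chr15:80255184-80257541, plus strand). Its level was 54.1 through 82.3 to 149 CPM in controls, 69.3, 83.0, 85.1 and 105 CPM in depleted livers and 101, 107 and 86.4 CPM after hepatectomy. Every depleted and hepatectomised liver lay within the range of the controls. The 95% interval of the log2 fold change ran from -0.44 to 0.48 for depletion and from -0.44 to 0.52 for hepatectomy, each against control.

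Ddit3 encodes CHOP, a transcription factor downstream of ATF4 that is linked to cell death under lasting stress (ENSMUSG00000025408, chr10:127290774-127296288, plus strand). It was sparse, at 3.24 through 4.95 to 6.89 CPM in controls, 3.62, 4.75, 4.96 and 8.84 CPM in depleted livers and 7.97, 3.62 and 5.09 CPM after hepatectomy. All groups overlapped, and the log2 fold changes against control were 0.20 ± 0.32 (SE, adjusted p = 0.669) and 0.15 ± 0.34 (SE, adjusted p = 0.839). Of the 1713 exon bases of Ddit3, 68 are shared with the opposite-strand gene Mars, so some reads could be split between them if strand was not used.

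Trib3 encodes a pseudokinase that is induced by ATF4 and CHOP, restrains both, and binds AKT in the insulin pathway of the liver (ENSMUSG00000032715, chr2:152337422-152344032, minus strand). Controls read from 8.002 through 19.5 to 46.1 CPM. The depleted livers read 6.26, 3.90, 6.99 and 7.64 CPM, 4 of 4 below every control. The log2 fold change of -1.73 ± 0.45 (SE, adjusted p = 0.00999), or 3.31-fold lower, was called by edgeR. The hepatectomised livers read 7.97, 3.48 and 9.48 CPM, of which replicates 1 and 2 lay below every control, and the log2 fold change of -1.65 ± 0.48 (SE, adjusted p = 0.0533) missed the threshold. The lowest control was replicate 5. Without it, the hepatectomised livers were called lower as well (-1.85, adjusted p = 0.0294), as they were without hepatectomised replicate 3 (-2.26, adjusted p = 0.0331) and in a fit with the replicate number as a block (-1.62, adjusted p = 0.0228).

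The call of Trib3 in depleted livers held without depleted replicate 4 (-1.87, adjusted p = 0.0135) and was lost without depleted replicate 3, the only male of that group, at nearly the same size (-1.66, adjusted p = 0.0504). Among females alone, 3 against 3, it was called at -1.37 (adjusted p = 0.0459). In controls the 3 males read 17.6 to 46.1 CPM and the 3 females 8.002 to 21.4 CPM. Immune markers rose in the depleted livers, and among these lists only the monocyte and neutrophil markers were called higher after hepatectomy too. Plasma and B cell markers summed to 4.90 to 8.05 CPM in controls and 47.4 to 66.2 CPM in depleted livers (8 of 8 tested called higher, Tnfrsf17 at 0 counts in every control), monocyte and neutrophil markers to 2.73 to 10.9 and 194 to 366 CPM (8 of 8, Ly6g at 0 counts in every control), T cell markers to 2.90 to 5.36 and 40.6 to 90.0 CPM (7 of 7), and macrophage markers to 75.0 to 608 and 1158 to 2268 CPM (5 of 8). After hepatectomy the monocyte and neutrophil sum was 21.97 to 39.2 CPM (5 of 8 called higher), while 0 of 7 T cell and 0 of 8 macrophage markers were called. Proliferation markers summed to 3.21 to 44.5 CPM in controls (Bub1 at 0 counts in at least 1), 48.6 to 135 CPM in depleted livers (6 of 8 called higher) and 74.8 to 484 CPM in hepatectomised livers (8 of 8). Cholangiocyte markers summed to 49.2 to 93.2 CPM in controls and 87.3 to 95.5 CPM after hepatectomy (2 of 5 tested called higher, none at 0 counts in any liver), and 1 of 8 plasma and B cell markers was called lower after hepatectomy, at sums of 1.66 to 6.21 CPM. The part of these cells in the results given for either group was not tested. In whole tissue, fewer cells of a type and less RNA per cell cannot be told apart.

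Asns encodes asparagine synthetase, an enzyme induced by ATF4 when amino acids are short (ENSMUSG00000029752, chr6:7675169-7693254, minus strand). Controls ranged from 0.449 through 2.42 to 7.53 CPM, depleted livers read 2.25, 1.97, 3.81 and 6.08 CPM and hepatectomised livers 12.8, 29.8 and 1.67 CPM. Both males after hepatectomy lay above all controls and the female lay below the control median. The log2 fold changes against control, 0.40 ± 0.82 (SE, adjusted p = 0.743) after depletion and 1.95 ± 0.96 (SE, adjusted p = 0.238) after hepatectomy, were not called. The 95% interval after hepatectomy ran from -0.15 to 4.05. With the replicate number as a block, Asns was called higher after hepatectomy (2.46, adjusted p = 0.0401).

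Counted over the 10 genes, 1 fell (Trib3) and 0 rose after depletion by edgeR, where 33.9% of all tested genes were called in either direction, 18.9% higher and 15.0% lower. Trib3 was also the only one of the 10 with CPM ranges that did not overlap, and 11.9% of all genes were lower by that measure. After hepatectomy edgeR called 0 of 10 against a background of 8.42% (6.06% higher, 2.36% lower). At an unadjusted p under 0.05 there were 5, of which 4 were higher (Xbp1, Herpud1, Creld2, Dnajb9) and 1 lower (Trib3), where 24.3% of all genes stood at that threshold (1837 higher and 1525 lower). DESeq2, which gave no adjusted p for Asns or Creld2, called Xbp1 higher and Trib3 lower, where it called 14.0% of all genes, and limma-voom called Trib3 lower, where it called 8.44% of all genes. With the replicate block Trib3 was lower and Asns higher, where 4.57% of all genes were called. Dnajb9 was the only one of the 10 whose range stood above that of the controls, as did 7.41% of all genes; none of the 10 stood below it, as did 6.25% of all genes. Between depleted and hepatectomised livers 1 of 10 was called, Dnajb9, against 23.4% of all genes (10.1% lower), and the ranges of Dnajb9 and Xbp1 lay lower, as did 15.9% of all genes.

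The median log2 fold change of the 10 genes was 0.07 after depletion (all genes -0.03), 0.61 after hepatectomy (all genes -0.02) and -0.56 for depleted against hepatectomised livers (all genes -0.05). Both comparisons with control share the same 6 control livers. Scaling to library size alone moved the median of all genes after hepatectomy to -0.24 and that of the 10 to 0.39. It also changed the split of calls over all genes after hepatectomy from 838 higher and 326 lower to 626 higher and 1566 lower. For depleted against control livers the split went from 2614 higher and 2078 lower to 2884 and 1471, and for depleted against hepatectomised livers from 1837 and 1399 to 3102 and 610.

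**Figure D2:**
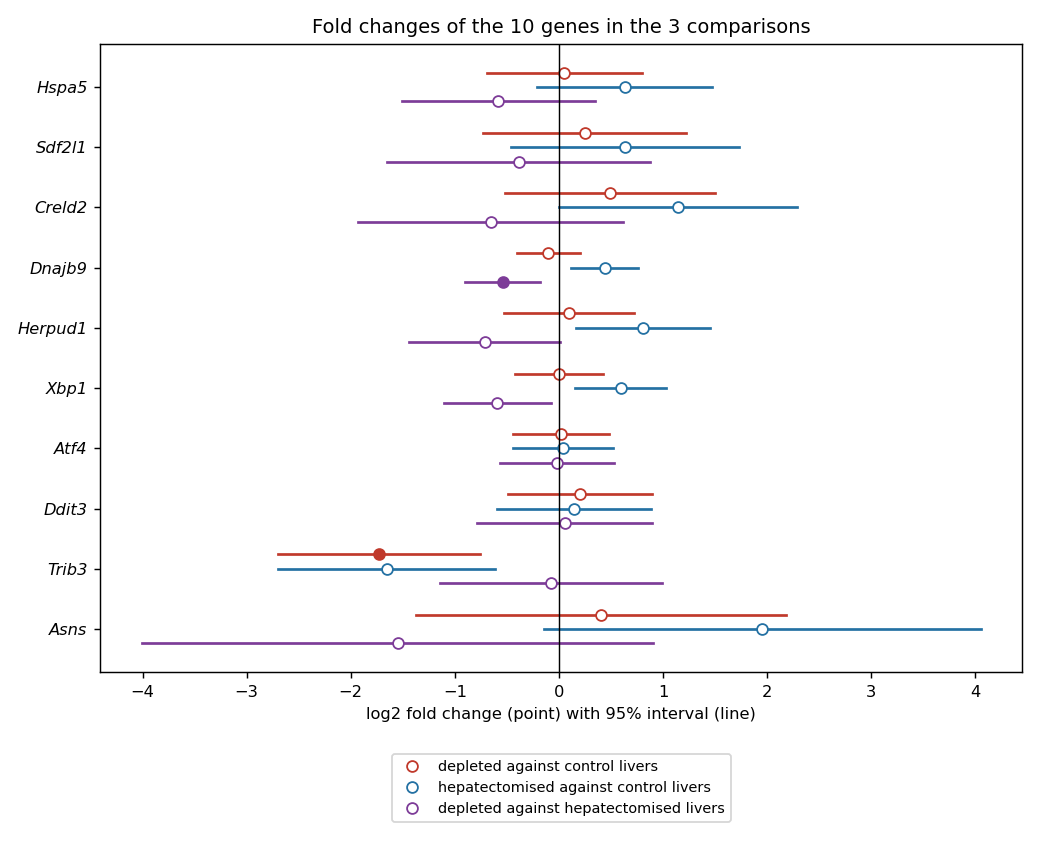
Log2 fold change (points) with its 95% interval (lines) for each gene in the 3 comparisons; filled points passed an adjusted p of 0.05. Trib3 is filled for depleted against control livers and Dnajb9 for depleted against hepatectomised livers, and the intervals of Asns are the widest, from -4.00 to 4.05 over the 3 comparisons.

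Leaving out 1 library changed how many of the 10 genes were called. Without depleted replicate 3 the count after depletion went from 1 to 0, as given for Trib3, and without control replicate 4 the counts in both comparisons with control rose. This last liver, from a female, had the highest control level of Hspa5, Sdf2l1, Creld2 and Asns, at 2.52, 2.42, 3.39 and 3.60 times the median of the other 5 controls, and the lowest of Atf4 and Herpud1, at 0.657 and 0.691 times. It was the highest control for 12 of 22 ER chaperones and folding enzymes (54.5%), against 18.2% of all tested genes, and the lowest for 3 of them, Pdia5, Sil1 and Fkbp14 (0.770, 0.794 and 0.808 times the others' median). The median ratio of the 22 was 1.29. Over the 9 lists of pathway genes, the share highest in this liver ran from 17.6% of the stress-induced regulators to these 54.5%. Some genes are given after their values were seen: Psat1, which makes serine with Phgdh, read 5.06 CPM in this liver against 0.374 to 0.618 CPM in the others, and the chaperones Manf, Hyou1 and Pdia4 read 2.82, 2.32 and 2.10 times the others' median. The same liver had the highest sum of 8 proliferation markers among controls, 44.5 CPM against 3.21 to 18.3 CPM. The part of those cells in the chaperone levels was not tested.

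Without control replicate 4, more of the 10 genes were called. That liver was the highest control for Hspa5, Sdf2l1, Creld2 and Asns, so leaving it out raised their folds by construction. The shares of all genes were not picked in this way, so the counts set beside them here support no rise. In depleted livers Trib3 fell and Sdf2l1, Creld2 and Asns rose (0.95, 1.29 and 2.20, adjusted p = 0.0339, 0.00121 and 0.0293), 4 of 10 against a background of 32.2% (18.4% higher, 13.8% lower). After hepatectomy Hspa5, Creld2 and Asns rose (0.92, 1.63 and 2.55, adjusted p = 0.0233, 0.00164 and 0.0230), 3 of 10 against 9.65% (6.75% higher, 2.91% lower). Dnajb9 stayed called between depleted and hepatectomised livers (-0.52, adjusted p = 0.0418), 1 of 10 against 22.7% (9.68% lower). The labels give no reason to leave this liver out, so values elsewhere include it unless stated otherwise.

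**Figure D3:**
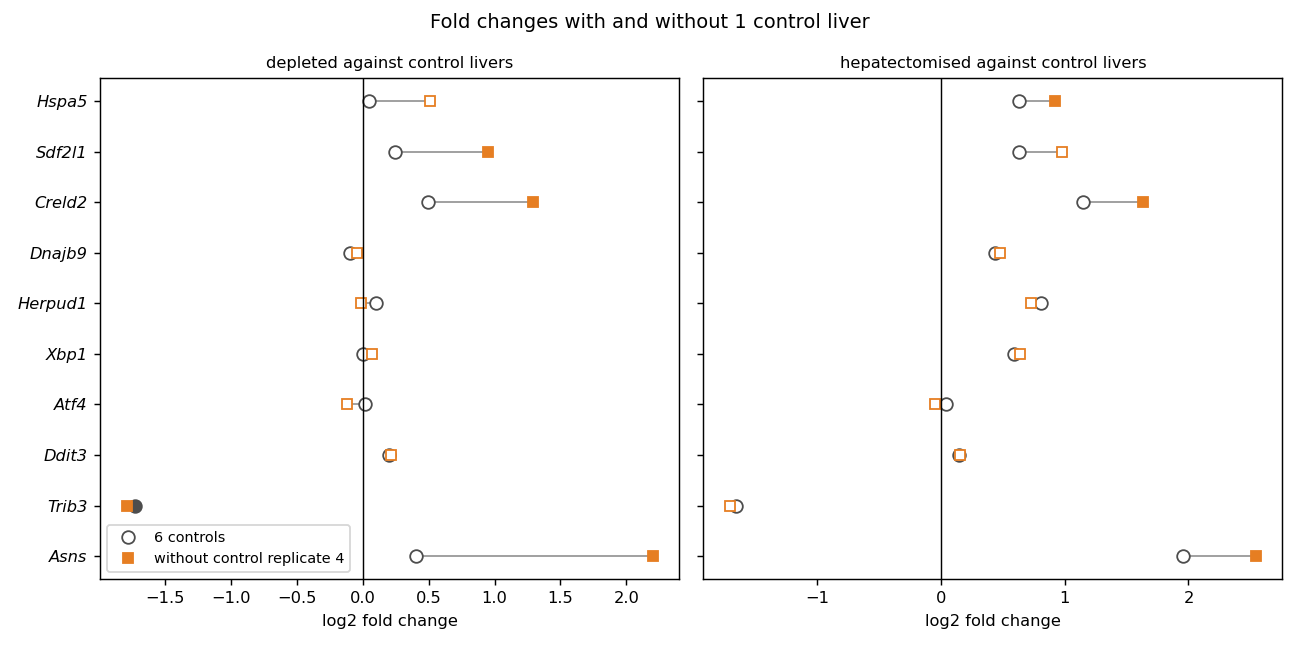
Log2 fold changes of the 10 genes against control with all 6 controls (circles) and without control replicate 4 (squares); filled symbols passed an adjusted p of 0.05. Asns after depletion moves most, from 0.40 to 2.20, while Trib3, Dnajb9, Xbp1 and Ddit3 move by less than 0.1 in both panels.

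The 10 genes also differed in how far they varied between livers of 1 group. The standard deviation of log2 CPM over the 6 controls was 1.58 for Asns, 0.95 for Creld2, 0.93 for Sdf2l1, 0.83 for Trib3, 0.64 for Hspa5, 0.50 for Atf4, 0.42 for Ddit3, 0.35 for Xbp1 and for Herpud1 and 0.25 for Dnajb9. The median over all tested genes was 0.31, and 98.4% of them varied less than Asns. The libraries that read high were shared in part. Hspa5, Sdf2l1, Creld2 and Asns were all above their means over the 13 livers in control replicate 4, depleted replicate 3 and hepatectomised replicates 1 and 2, and all below them in control replicates 2, 3 and 5, depleted replicates 1 and 2 and hepatectomised replicate 3, whereas Atf4 and Trib3 were highest in control replicate 6.

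**Figure D4:**
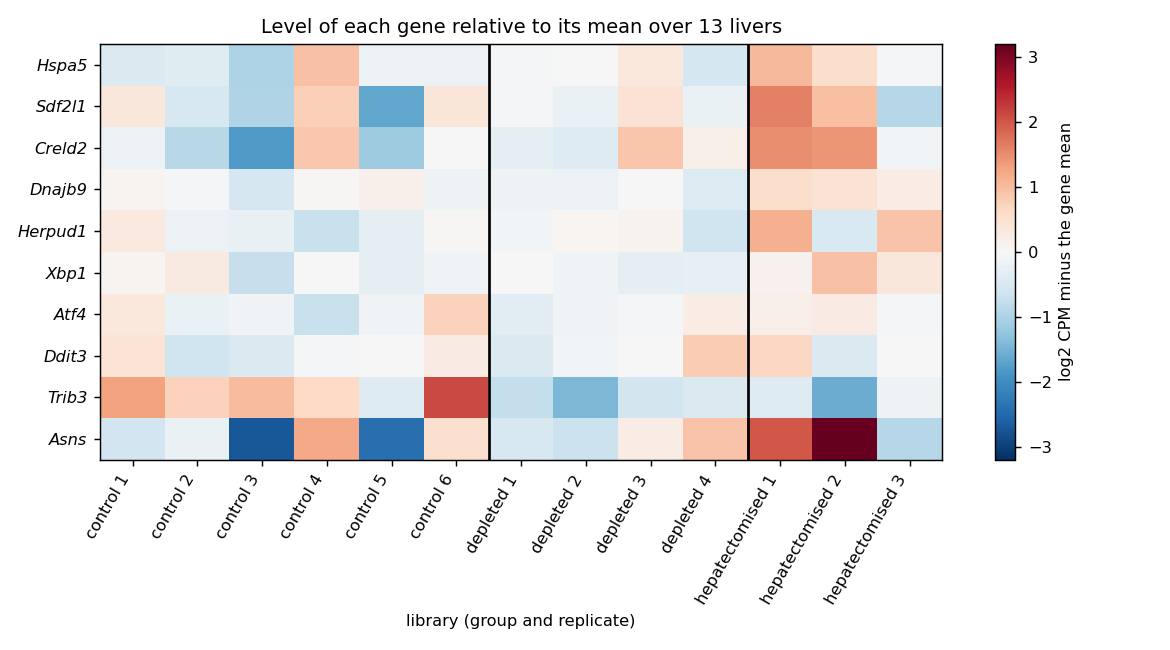
Log2 CPM of each gene (rows) in each of the 13 livers (columns) minus its mean over the 13, with red above and blue below the mean. The row of Asns has the deepest colours in both directions, and Trib3 is red in 5 of 6 controls and blue in the 7 other livers.

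Genes whose levels followed those of Hspa5 and of Asns were ranked by the root mean square difference of centred log2 CPM over the 13 livers. Nearest to Hspa5, whose own standard deviation was 0.56, were Ccdc149 (0.26), Hyou1 (0.26), Pdia4 (0.27), Ssr3 (0.28) and Mlec (0.29). Hyou1 and Pdia4 encode ER folding proteins, Ssr3 a subunit of the translocon-associated complex and Mlec an ER lectin. Nearest to Asns, whose own standard deviation was 1.57, were Zdhhc2 (0.72), Mthfd2 (0.77), Slc35f2 (0.77), Ube2u (0.78) and Rad54b (0.78). Mthfd2 encodes a mitochondrial folate enzyme.

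Around the 10 genes, 9 lists with 137 further genes of the pathway were counted, of which 134 were tested. In depleted livers 17 rose and 16 fell (12.7% and 11.9%, against 18.9% and 15.0% of all tested genes), with a median log2 fold change of -0.01. After hepatectomy 13 rose and 0 fell by edgeR (9.70% higher, against 6.06% higher and 2.36% lower of all genes), with a median of 0.35. Between depleted and hepatectomised livers 4 were higher and 29 lower in the depleted livers (2.99% and 21.6%, against 13.3% and 10.1%). The counts of the single lists are to be read against these same shares of all genes, and a count near them is not a result about the list. Without control replicate 4 the counts were 23 and 10 after depletion (all genes 2531 and 1903) and 33 and 0 after hepatectomy (all genes 930 and 401). Between the groups they were 5 and 26 (all genes 1789 and 1335). Several lists held many genes that were highest in that control, so these counts support no rise. Without depleted replicate 3 they were 9 and 7 after depletion (all genes 1786 and 1174) and 1 and 7 between the groups (all genes 1051 and 658). The count of rises after hepatectomy was 8 without control replicate 2 (all genes 587) or 5 (all genes 667). Without depleted replicate 4 it was 21, with 1 fall, where 1458 of all genes were called in either direction. DESeq2 gave 29 and 1 (all genes 1193 and 746). The 29 lower between the groups became 7 to 17 without depleted replicate 1, 2 or 3 or hepatectomised replicate 1 or 2. In those fits 1709 to 2950 of all genes were called in either direction, against 3236. A fit of those groups alone gave 10 lower (all genes 707). In females alone 9 rose and 3 fell after depletion (all genes 1834 and 861), and with the replicate block 16 rose and 10 fell (all genes 2213 and 1674). Scaled to library size alone, which shifts all genes, 18 rose and 8 fell after depletion (13.4% and 5.97%, against 20.9% and 10.6% of all genes). After hepatectomy it was 7 and 4 (5.22% and 2.99%, against 4.53% and 11.3%). Between depleted and hepatectomised livers it was 10 and 5 (7.46% and 3.73%, against 22.4% and 4.41%).

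The sensors themselves were not called in either comparison with control, except that Ern1 was lower after hepatectomy with scaling to library size alone (-0.78, adjusted p = 0.0443). The log2 fold changes of Ern1 were -0.30 ± 0.23 and -0.56 ± 0.25 (SE), those of Eif2ak3 -0.06 ± 0.19 and 0.37 ± 0.20, and those of Atf6 -0.11 ± 0.20 and 0.20 ± 0.22, for depletion and hepatectomy in that order. Of the 13 sensors and transducers, Atf6b, a paralogue of Atf6, rose in depleted livers (0.62), and Creb3l3, a liver-specific relative that is released in the same way, fell (-0.68), as did Mbtps1 (-0.45), the first protease in that release. After hepatectomy Creb3l2, another relative, rose (0.83).

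Of the 22 ER chaperones and folding enzymes, 1 rose in depleted livers, the oxidase gene Ero1b (0.68), and 0 after hepatectomy by edgeR, where the median of the list was 0.43. Hsp90b1, the ER form of HSP90, had log2 fold changes of -0.20 ± 0.18 (SE, adjusted p = 0.423) and 0.22 ± 0.20 (SE, adjusted p = 0.535). Without control replicate 4, 4 of the 22 rose after depletion and 7 after hepatectomy, where 18.4% and 6.75% of all genes rose. As 12 of the 22 were highest in that control, these counts support no rise. Of the 20 genes of ER-associated degradation, Ube2g2, an E2 ubiquitin-conjugating enzyme, rose in both (0.72 and 1.17), the former not called with the replicate block. Erlec1 also rose in depleted livers (0.25), where Rnf5, Faf2 and Nploc4 fell (-0.55, -0.41 and -0.39). Of 18 tested genes of translocation and signal peptide processing, Spcs2, a signal peptidase subunit, rose after depletion (0.61) and Spcs1, another, after hepatectomy (0.54), while Sec63 and Sec62, which sit at the translocon, fell after depletion (-0.33 and -0.29).

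Phgdh, the first enzyme of serine synthesis, was at most 0.472 CPM in controls, 1.14 to 2.67 CPM in depleted livers and 0.474 to 1.23 CPM after hepatectomy, and was called higher in both (3.45 ± 0.57 SE, adjusted p = 0.000545, and 2.29 ± 0.64 SE, adjusted p = 0.0453). Psat1 read 2.42 to 7.04 CPM in depleted and 1.22 to 5.84 CPM in hepatectomised livers and was not called by edgeR (1.78 ± 0.77 SE, adjusted p = 0.0972, and 2.03 ± 0.98 SE, adjusted p = 0.228). Control replicate 4, at 5.06 CPM, stood within both groups' ranges, and without it Psat1 was called higher in both (3.37, adjusted p = 0.000275, and 2.88, adjusted p = 0.00368). Leaving out the highest control raises such a fold by construction. After depletion Psat1 was also called with the replicate block (2.24, adjusted p = 0.0229) and by limma-voom (2.52, adjusted p = 0.0103). Of 14 tested genes of amino acid synthesis and transport that ATF4 targets, 4 rose and 1 fell after depletion (median 0.34), among them Aldh18a1 (1.43), Slc7a1 (1.39) and, lower, Shmt2 (-0.41). After hepatectomy 3 rose (median 1.07), Slc38a2 (1.47), Psph (1.17) and Phgdh. The remaining rise after depletion was the cystine transporter Slc7a11, named after its values were seen: 5 of 6 controls had 0 counts and control replicate 2 had 2, while depleted livers had 30, 6, 64 and 70 counts and hepatectomised livers had 3, 6 and 2. Depleted replicate 2 and hepatectomised replicate 2, with 6 counts each, read 0.134 and 0.168 CPM. Slc7a11 and Phgdh reached the level of the low-count filter in 3 libraries of the depleted but not of the control group, so that their calls support no count of the list. Over the pathway genes that reached it in both groups compared, 15 of 131 rose and 16 fell after depletion, 12 of 130 rose and 0 fell by edgeR after hepatectomy, where Phgdh is again left out, and 3 of 130 were higher and 29 lower in depleted than in hepatectomised livers.

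Of 12 aminoacyl-tRNA synthetases, several of them ATF4 targets, 1 rose and 2 fell after depletion (median -0.11), and 2 rose after hepatectomy (median 0.13). The rise after depletion was that of Wars (2.37 ± 0.18 SE, adjusted p = 3.2e-06), from 12.5 to 17.2 CPM in controls to 61.5 to 91.1 CPM. Wars is known as a target of interferon gamma too, and the immune marker sums given for Trib3 also rose in the depleted livers. The part of those cells in this rise was not tested. Cars and Mars fell after depletion (-0.65 and -0.36), and Cars and Yars rose after hepatectomy (0.75 and 0.42).

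Of the 17 tested stress-induced regulators and secreted factors, 6 rose and 1 fell after depletion and 4 rose after hepatectomy. Ddit4, which encodes the mTORC1 inhibitor REDD1, read 1.86 to 5.64 CPM in controls, 14.7 to 61.8 CPM in depleted and 15.1 to 27.5 CPM in hepatectomised livers, with log2 fold changes of 3.72 ± 0.42 and 2.75 ± 0.44 (SE). Cebpb, a transcription factor of the acute phase and of liver regeneration, also rose in both (1.31 ± 0.24 and 2.18 ± 0.24 SE). Chac1, which degrades glutathione and is induced by ATF4, read 0.679 to 5.12 CPM in controls and 9.14 to 19.6 CPM after hepatectomy, and rose there (2.90 ± 0.48 SE, adjusted p = 0.00448). Neither this call nor that of Ddit4 after hepatectomy held with the replicate block. Atf3, an immediate-early factor of the stress response, rose after depletion (2.95 ± 0.60 SE) and was not called after hepatectomy by edgeR (2.17 ± 0.65 SE, adjusted p = 0.0590), where it was called by DESeq2 (2.18, adjusted p = 0.00903) and without hepatectomised replicate 1 (2.58, adjusted p = 0.0306). Ppp1r15a, the subunit that directs eIF2α dephosphorylation, was not called in either (0.30 ± 0.22 and 0.50 ± 0.23 SE). Vldlr, a lipoprotein receptor, fell after depletion (-2.11), with sex in the model, and was not called without it (adjusted p = 0.448); control females read 15.5 to 26.4 CPM and control males 0.540 to 2.05 CPM.

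Of the 8 mitochondrial stress proteins, 4 fell after depletion, where 15.0% of all genes fell, and 0 after hepatectomy by edgeR, where 2.36% did. The share of counts from the mitochondrial genome was 4.43% to 6.66% in controls and 4.61%, 4.38%, 2.02% and 3.55% in depleted replicates 1 to 4. After hepatectomy it was 3.90% to 4.98%, and the ranges of all groups overlapped. The part of this share in the fall was not tested. Lonp1, the matrix protease, read 148 to 181 CPM in controls and 96.8 to 105 CPM in depleted livers (-0.72 ± 0.11 SE), and the chaperones Hspa9 and Trap1 fell with it (-0.69 and -0.56). Of the 10 cytosolic heat shock proteins, Hspb8 rose in both (0.72 and 1.18) and Dnaja1 fell after depletion (-0.71).

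These calls were not equally firm. Of the 28 named calls after depletion, 12 held when each of the 13 libraries was left out in turn and under every other setting fitted to livers of both sexes: those of Atf6b, Phgdh, Aldh18a1, Wars, Atf3, Cebpb, Ddit4, Hspa9, Lonp1, Trap1, Dnaja1 and Hspb8. Of the 12 after hepatectomy, 4 did: those of Ube2g2, Slc38a2, Cebpb and Hspb8. Phgdh, called in both comparisons, reached the low-count filter's level only in the treated group of each, so its calls support none of these counts. In females alone, 18 of the 28 calls after depletion were lost, among them those of Atf6b and Dnaja1. Leaving out libraries ended 12 of the 28 calls after depletion, each of them without depleted replicate 3 and some without other libraries (adjusted p up to 0.229). After hepatectomy Psph was lost without hepatectomised replicate 1 (adjusted p = 0.0533), and Creb3l2, Spcs1, Phgdh, Cars and Yars were each lost without 4 to 10 of the libraries, with adjusted p up to 0.224.

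Scaling to library size alone ended 8 of the calls after depletion, all falls: Mbtps1 (adjusted p = 0.0735), Faf2 (0.0554), Nploc4 (0.198), Sec63 (0.139), Sec62 (0.240), Shmt2 (0.179), Cars (0.0888) and Mars (0.141). After hepatectomy it ended 5, all rises: Phgdh (2.05, adjusted p = 0.0578), Creb3l2 (0.0939), Spcs1 (0.159), Cars (0.135) and Yars (0.351). With the replicate number as a block 9 were lost after depletion, at log2 fold changes near those given: Creb3l3 (-0.65, adjusted p = 0.0526), Ube2g2 (0.71, 0.0565), Rnf5 (-0.47, 0.0584), Nploc4 (-0.44, 0.0610), Mars (-0.37, 0.0920), Sec62 (-0.30, 0.108), Sec63 (-0.35, 0.119), Shmt2 (-0.38, 0.135) and Erlec1 (0.24, 0.191). The block ended 5 after hepatectomy, Chac1 (2.49, adjusted p = 0.0602), Cars (0.82, 0.0608), Ddit4 (2.62, 0.0759), Creb3l2 (0.73, 0.104) and Yars (0.44, 0.107). Without the sex covariate the calls of Ero1b (0.53, adjusted p = 0.123), Vldlr (-1.48, 0.448), Erlec1 (0.23, 0.0533), Spcs2 (0.55, 0.0587) and Mars (-0.52, 0.0533) after depletion and of Yars (0.50, 0.0877) after hepatectomy were lost. The folds of Mars and Yars were larger than with it, and those of the other 4 smaller. A fit of only the groups compared ended 4 in each comparison (adjusted p from 0.0501 to 0.0708), and a change of the low-count filter ended up to 3 (adjusted p up to 0.0786).

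**Figure D5:**
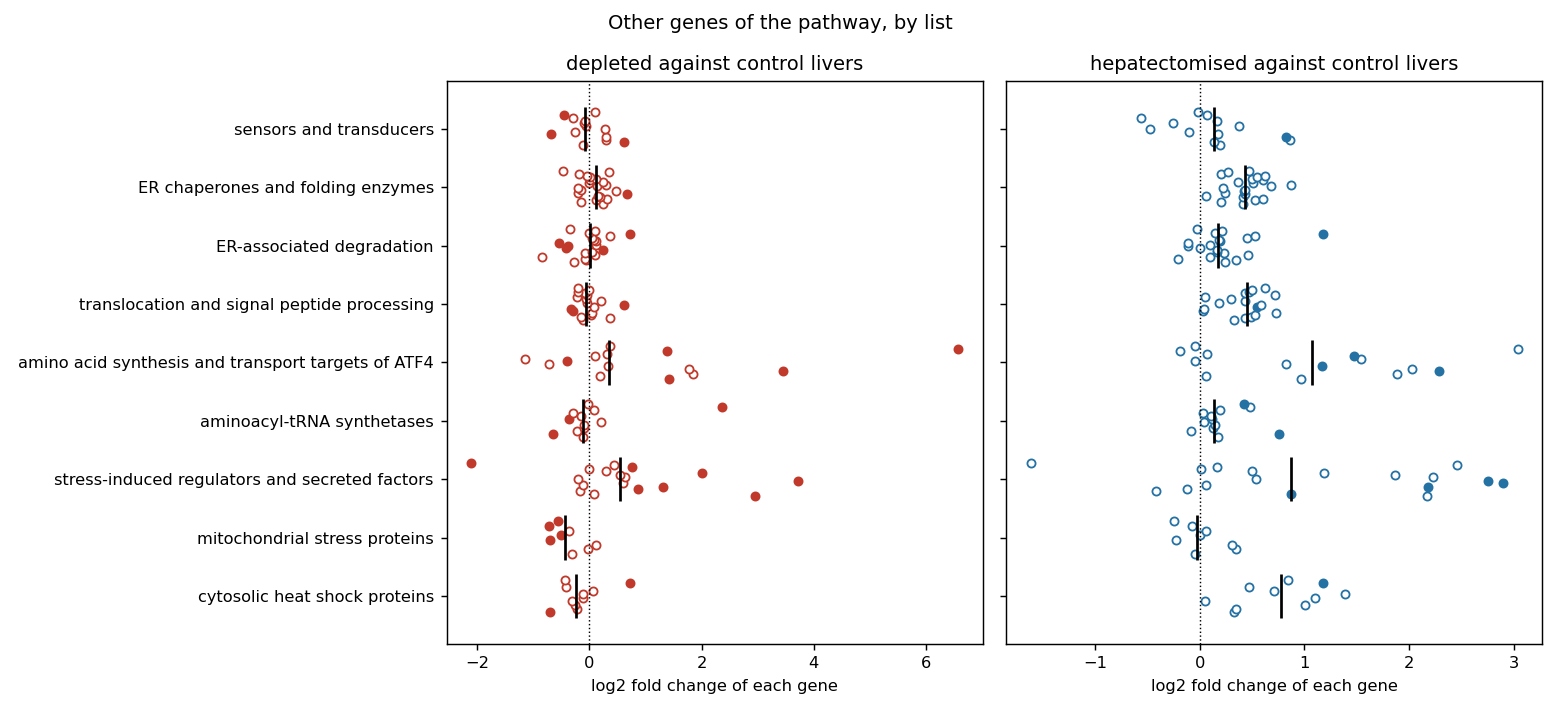
Log2 fold change of each further gene of the pathway (points) by list, with the median of the list (vertical bar), for depleted and for hepatectomised against control livers; filled points passed an adjusted p of 0.05. The mitochondrial stress proteins have 4 filled points below 0 after depletion, and all 13 filled points after hepatectomy lie above 0; the point farthest right in the left panel is Slc7a11.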

How the data were processed

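The authors deposited raw read counts per gene for whole-liver mRNA of 13 mice. Per the labels' protocols, RNA was taken up in TRIzol and 500 ng per sample went into stranded TruSeq mRNA libraries. The submitters' processing notes name STAR 2.7.1a, SAMtools 1.15.1, featureCounts 1.6.4 and the build mm10, whereas the strand setting, the handling of multi-mapped reads and the annotation release are not given in the sources used here. Symbols and coordinates come from GENCODE M21 on GRCm38, which matched 21741 of 22048 identifiers. Promoter sequences come from RefSeq (GRCm38.p6).

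Counts were tested with edgeR 4.0.16 in R 4.3.3 (robust quasi-likelihood F-test, two-sided) with group and sex over all 13 libraries, TMM scaling, the filterByExpr filter and Benjamini-Hochberg adjustment at 0.05. Log2 CPM used a prior count of 2. Alternatives were DESeq2 1.42.0, limma 3.58.1 (voom), other scalings, filters and covariates, females alone, a block on the replicate number and leaving out each library. The test was checked on simulated counts. With 200 genes changed between depleted and control livers, it recovered 55.1% of 2-fold and 85.3% of 4-fold changes, and 141 of 151 calls were true. For hepatectomised against control livers 0 genes were changed and 0 called, so recovery there was not measured. Groups and sex come from the labels. Each p-value sets a group difference against the spread between livers within the groups, as estimated in a fit that shares information across genes. Libraries within a group differed by more than sampling noise.

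The 10 genes and the lists were chosen with earlier results of these data known. Further genes are named by rule: per list and comparison with control, up to 3 called higher and 3 called lower with the largest change at a mean log2 CPM of at least 0, and 8 named in any case (Ern1, Eif2ak3, Atf6, Hsp90b1, Atf3, Ppp1r15a, Psat1, Phgdh). Ero1a and Ero1b are Ero1l and Ero1lb in the table, and Trac was not matched. Sinusoidal endothelial markers summed to 104 to 463 CPM in control, 271 to 512 CPM in depleted and 99.2 to 289 CPM in hepatectomised livers, and cholangiocyte markers to 49.7 to 90.9 CPM in depleted livers.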

Additional observations from a re-analysis of the deposited data

Results flagged for a closer look

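Hspa5 in control replicate 4, at 1143 CPM, stood apart from the other 5 controls, which read 299 to 525 CPM. Its gap to the next control was 0.732 of the whole range of the 6. The same liver stood apart in Psat1, at 5.06 CPM against 0.374 to 0.618 CPM (gap 0.948), and in the sum of proliferation markers, at 44.5 CPM against 3.21 to 18.3 CPM (gap 0.636). Ppp1r15a in control replicate 1 read 16.1 CPM against 8.84 to 11.4 CPM in the other controls (gap 0.645). Depleted replicate 4 had the highest stellate marker sum of its group, 53.0 CPM against 6.27 to 9.66 CPM (gap 0.927), and the lowest sinusoidal endothelial sum, 271 CPM against 489 to 512 CPM (gap 0.903). These 6 were found among 54 groups of 4 or 6 livers tested for such a gap. The groups were taken from the 10 genes, 8 further genes and 9 marker lists in control and in depleted livers. The nominal rate of such a gap is about 1 in 20. The groups share livers, and several flags fall on control replicate 4, so that rate is only a rough guide.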

How the results depend on the processing

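Over the 10 genes, 3 comparisons and all alternatives, 597 of 670 refitted values kept their direction and their side of the threshold, 20 were newly called, 11 lost a call and 42 changed sign, all of the last for values that were not called. DESeq2 gave no adjusted p for Asns or Creld2 in any of the 3 comparisons, so there only their direction is counted. The number of the 10 called was 1, 0 and 1 for depleted against control, hepatectomised against control and depleted against hepatectomised livers. For hepatectomised against control livers it became 1 without the sex covariate, with library size alone or with limma-voom (Trib3 each time) and 2 with DESeq2 (Xbp1 and Trib3). For depleted against hepatectomised livers it became 2 without the sex covariate (Xbp1, Dnajb9) and 0 with only those groups in the fit or with library size alone. Leaving out each library gave 0 to 4, 0 to 3 and 0 to 1 in the same order of comparisons. Whether replicate numbers pair the livers is not given by the labels. With sex in the model, deviations of same-numbered livers correlated at -0.10 to 0.42, -0.19 to 0.08 and 0.04 to 0.27 in the same order. Deviations from plain group means correlated at -0.34 to 0.07, 0.11 to 0.52 and -0.35 to -0.0012, and the 3 same-numbered pairs of hepatectomised and control livers share their sex as well, so number and sex cannot be told apart there. With the replicate block the number called was 2 after hepatectomy (Trib3, adjusted p = 0.0228; Asns, adjusted p = 0.0401) and 0 between depleted and hepatectomised livers, and the call of Trib3 after depletion was unchanged (adjusted p = 0.0022). Changes of sign for depleted against control livers were Atf4 (-0.12) and Xbp1 (-0.073) without the sex covariate, Xbp1 without the low-count filter (-0.0037) and with the replicate block (-0.048), Eif2ak3 with library size alone (0.024), and Hspa5 (-0.32) and Ern1 (0.047) in females alone. With library size alone after hepatectomy they were Ddit3 (-0.071), Atf4 (-0.16), Atf6 (-0.029) and Hsp90b1 (-0.0017). For depleted against hepatectomised livers they were Ddit3 without the sex covariate (-0.0038), with only those groups (-0.043) and with the replicate block (-0.044), Atf4 (0.31) and Trib3 (0.27) with library size alone, and Trib3 with limma-voom (0.16). Leaving out 1 library also changed the sign for depleted against control livers in Hspa5 (-0.15 to 0.51), Atf4 (-0.12 to 0.18), Xbp1 (-0.12 to 0.16), Herpud1 (-0.011 to 0.22), Eif2ak3 (-0.14 to 0.094), Ddit3 (-0.11 to 0.34), Asns (-0.11 to 2.20) and Atf6 (-0.20 to 0.073), for hepatectomised against control livers in Atf4 (-0.046 to 0.21) and Ddit3 (-0.19 to 0.38) and for depleted against hepatectomised livers in Atf4 (-0.16 to 0.15), Trib3 (-0.40 to 0.66), Ddit3 (-0.24 to 0.34) and Sdf2l1 (-0.999 to 0.031) (lowest to highest over the libraries). The causes were not tested. The number of all genes called after hepatectomy, 1164, was 2192 with library size alone, 1939 with DESeq2, 632 with the replicate block, 692 and 742 without control replicates 1 and 2 and 483 without hepatectomised replicate 2. After depletion it was 2960 without depleted replicate 3 and 2695 in females alone, against 4692. Between depleted and hepatectomised livers it was 2105 with only those groups and 1709 without depleted replicate 3, against 3236. TPM gave the 10 genes the same order of levels as RPKM in all 3 groups.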
